A study of Homo sapiens with 16 samples.

Results

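The 47 interferon response genes described here were taken by name from the 23709 genes of the count tables, and all 47 were found there. They were measured by RNA sequencing in 16 libraries from 2 human lung lines. H1299 is a non-small cell lung carcinoma line. In these libraries it carried either a transfected plasmid for Flag-tagged FLII (H1299 FLII overexpression) or the empty plasmid (H1299 vector). HBE is a bronchial epithelial line, and both lines are labelled as epithelial lung cells. HBE carried either a stable lentiviral short hairpin RNA against FLII (HBE FLII knockdown) or the control that the labels call NC (HBE NC), whose construct is not given in the sources used here. FLII (flightless I) is an actin-binding protein of the gelsolin family. Each of the 4 groups was sequenced as mRNA, as cytosol RNA, as nuclear RNA and as RNC RNA, which is the RNA pelleted with ribosome-nascent chain complexes, with 1 library for each. The cells were at passage 15 to 18, no interferon treatment is named in the labels, and how cytosol and nuclear RNA were separated is not given in the sources used here. Reads assigned to genes ran from 5914489 to 9259569 per library outside RNC and from 26711771 to 38514467 in RNC. With 1 library per group there is no replicate error. Intervals below cover the counting error of the reads only, reads are not independent molecules, and no p-values are given.

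Interferons are secreted proteins that cells release when sensors such as RIG-I and MDA5 meet foreign nucleic acid. They bind receptors that act through JAK kinases on a complex with STAT2 and IRF9, which binds the interferon-stimulated response element (ISRE) in the promoters of its target genes. The products of these genes block virus entry, bind or degrade viral RNA, tag proteins with ISG15, present antigen and feed back on the pathway, and airway epithelium is one of the tissues where this response is best known. Many cancer lines express part of these genes without added interferon.

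Before the members, the labels were checked against FLII and against genes that mark the lines. FLII stood at 625 against 143 RPKM (reads scaled to transcript length and to the total of the library) in H1299 mRNA of the FLII overexpression and vector libraries. It stood at 13.8 against 75.3 RPKM in HBE mRNA of the knockdown and NC libraries, and it moved the same way in cytosol and nuclear RNA. In RNC the labels and the markers part. FLII had 5.61 RPKM in the library labelled H1299 FLII overexpression RNC and 89.2 RPKM in that labelled H1299 vector RNC. The basal keratin KRT17, at 13.7 RPKM in H1299 vector mRNA and 2107 RPKM in HBE NC mRNA, had 2539 and 0.304 RPKM in these 2 RNC libraries. The libraries labelled HBE FLII knockdown RNC and HBE NC RNC held KRT17 at 1.14 and 580.2 RPKM. The same 2 libraries held FLII at 30.0 and 36.5 RPKM. The mesenchymal filament gene VIM, at 2949 RPKM in H1299 vector mRNA and 2.77 RPKM in HBE NC mRNA, had 25.9 and 69.0 RPKM in the RNC libraries labelled H1299 FLII overexpression and H1299 vector. It had 143 and 204 RPKM in those labelled HBE FLII knockdown and HBE NC. The 7 epithelial markers, KRT17 among them, summed to 3399 and 1157 RPKM under the RNC labels H1299 FLII overexpression and HBE NC. Under the labels H1299 vector and HBE FLII knockdown they summed to 9.24 and 42.8 RPKM. KRT5, KRT19, EPCAM, TP63 and SFN each split these libraries as KRT17 did. CDH1 did so narrowly (H1299 FLII overexpression 0.868, HBE FLII knockdown 0.832 RPKM). VIM split them otherwise and was far below H1299 vector mRNA in each. The mesenchymal markers FN1, CDH2 and ZEB1 were also higher in both RNC libraries labelled HBE than in both labelled H1299. Under the labels H1299 FLII overexpression, H1299 vector, HBE FLII knockdown and HBE NC, FN1 stood at 5.67, 4.54, 24.9 and 52.4 RPKM. In the same order CDH2 stood at 0.547, 0.651, 2.20 and 3.78 RPKM, and ZEB1 at 0.0704, 0.297, 0.872 and 0.601 RPKM. Epithelial and mesenchymal markers thus gave no single assignment of the RNC libraries to a line, and which line each holds was not settled. RNC libraries are named by their labels throughout and stay out of the counts over libraries of a line. Of the 8 leucocyte markers, CD68 stood at 26.8 to 119 RPKM outside RNC within a sum of 35.8 to 128 RPKM, and PTPRC, which marks all leucocytes, was at or below 0.0441 RPKM in every library. CD14 reached 18.9 RPKM in HBE NC mRNA and 8.55 RPKM in the library labelled H1299 FLII overexpression RNC. It stayed at or below 0.292 RPKM in the H1299 libraries outside RNC. LYZ reached 7.59 RPKM, in H1299 FLII overexpression nuclear RNA.

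In the heat map of all members, 21 to 39 of the 47 stood at 1 RPKM or more in a library, and together they took 0.182% to 0.788% of a library's reads. ISG15 was the highest member in each of the 6 H1299 libraries outside RNC, at 709 to 5467 RPKM, and IFITM3 was the highest in each of the 6 HBE libraries, at 1303 to 3315 RPKM. At the low end, IFI44L had 10 reads over the 12 libraries outside RNC, and EPSTI1, MX2 and OAS2 stayed at or below 0.495 RPKM in each of them.

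**Figure D1:**
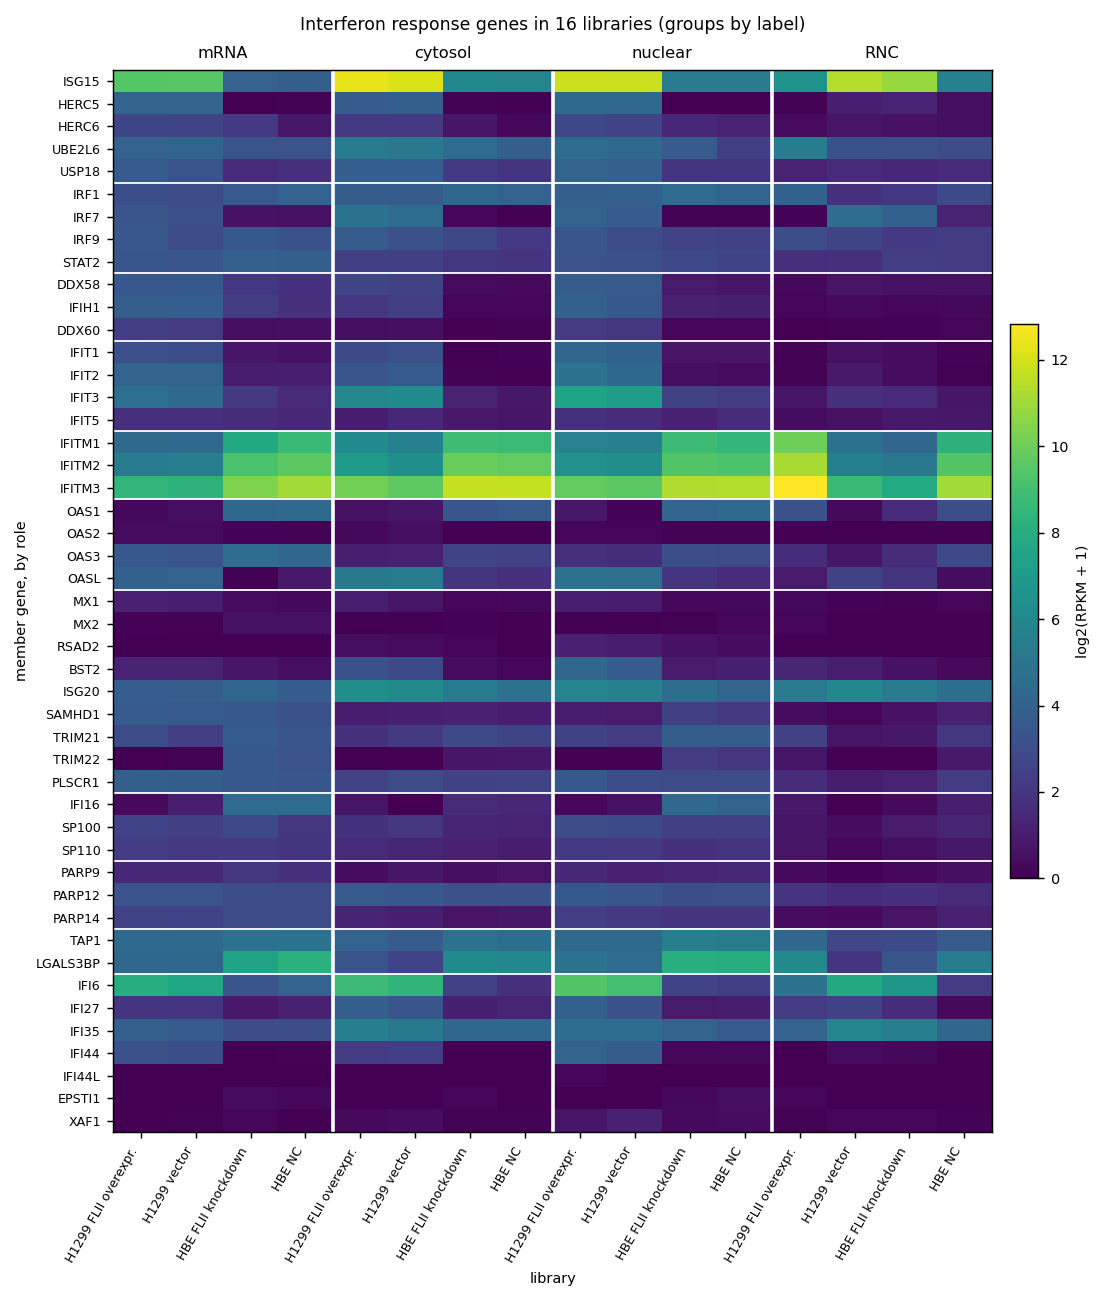
Level of each of the 47 members (rows, grouped by role) in each of the 16 libraries (columns, by fraction and label), as log2 of the deposited RPKM plus 1. ISG15 is the brightest row in H1299 libraries outside RNC and IFITM3 in HBE libraries outside RNC. In RNC, ISG15 is brighter in the columns labelled H1299 vector and HBE FLII knockdown than in the other 2.

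The line contrast asks which members differ between the control cells of the 2 lines, H1299 vector over HBE NC. A member was kept with at least 20 reads over the pair, and called when its log2 fold of scaled counts was at least 1 in size and its 95% interval excluded no change. In mRNA, 15 of the 39 members kept were called higher in H1299 and 10 lower, where 21.2% and 22.4% of all genes were. In cytosol RNA, 16 of 40 were called higher (all genes 26.7%) and 9 lower (22.2%). Nuclear RNA gave 21 of 43 called higher (all genes 22.3%) and 11 lower (23.1%). The median log2 fold of the members was 0.16 in mRNA, 0.82 in cytosol and 0.80 in nuclear RNA, beside −0.01, 0.13 and −0.03 for all genes, with members far out on both sides. Genes with 0 reads in 1 library lie on the same side of these medians when set at their lower bound.

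Calls of members ran the same way across fractions, as did those of nearly all genes. Of the 38 members kept in all 3 fractions, 14 (36.8%, beside 13.1% of all genes) were called higher in H1299 in each: ISG15, HERC5, HERC6, USP18, IRF7, DDX58, IFIH1, DDX60, IFIT1, IFIT2, IFIT3, OASL, IFI6 and IFI44. A further 8 (21.1%, beside 13.9%) were called lower in each: IFITM1, IFITM2, IFITM3, OAS1, OAS3, TRIM21, IFI16 and LGALS3BP. Of the 43 members kept in at least 1 fraction, 33 (76.7%, beside 64.5%) were called in at least 1 and 0 in both directions (all genes 0.541%). The plot of line folds shows both ends. Between the other pair of libraries, H1299 FLII overexpression over HBE FLII knockdown, 22 of the 25 mRNA calls held (HERC6, IRF1 and TRIM21 did not), as did 24 of 24 cytosol calls kept and 28 of 32 nuclear calls (UBE2L6, RSAD2, ISG20 and XAF1 did not). Scaling to total counts in place of TMM shifted the all-gene median by 0.27, 0.46 and 0.24 in mRNA, cytosol and nuclear RNA and the share of higher calls among all genes to 59.8%, 71.7% and 59.6%, against 48.7%, 54.5% and 49.1%. The members then split 15 higher to 9 lower, 22 to 7 and 22 to 10.

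**Figure D2:**
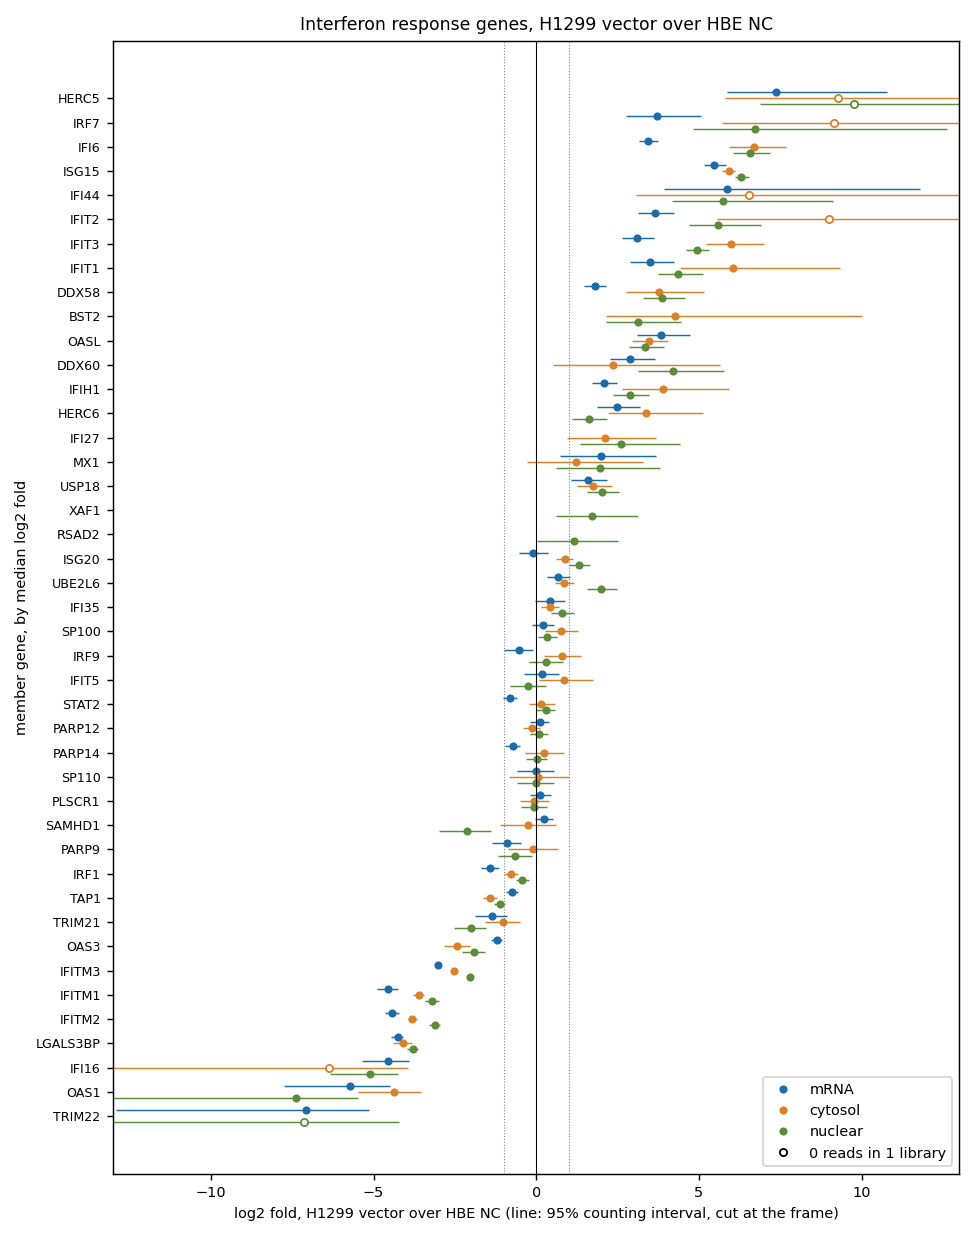
Log2 fold of each member, H1299 vector over HBE NC, in mRNA (blue), cytosol (orange) and nuclear RNA (green), with its 95% counting interval, for members with at least 20 reads over the pair. Open points have 0 reads in 1 library, so their place depends on the 0.5 reads added; dotted lines mark a log2 fold of 1 in size. HERC5, IRF7, IFI6 and ISG15 lie at the top and TRIM22, OAS1, IFI16 and LGALS3BP at the bottom.

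A split was also read from levels in the same libraries, without a pairwise fold, and its members differed in part. HERC6, IFIH1, DDX60, OAS3 and TRIM21, called in each fraction, overlapped between the lines. PARP12, OAS2, MX1, BST2, IFI27, TRIM22 and TAP1, not called in each fraction, did not overlap. In 16 members the deposited RPKM of all 6 H1299 libraries outside RNC lay above all 6 HBE libraries, where 15.7% of all genes did. In 8 members all 6 H1299 libraries lay below all 6 HBE libraries, where 10.8% of all genes did, and in 23 the lines overlapped. The 6 libraries of a line differ in fraction and in FLII and are not replicates. The H1299 FLII overexpression cytosol library carried more keratin reads than other H1299 libraries (KRT17 45.6 RPKM, against 2.95 RPKM in H1299 vector cytosol). Without it, DDX60 and IFIH1 joined the 16, and the 8 did not change in number. In bulk RNA, fewer cells expressing a gene and less RNA per cell cannot be told apart.

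ISG15, a ubiquitin-like protein that is joined to other proteins and also secreted, was the leading member in H1299. It stood at 709 and 729 RPKM in H1299 mRNA, against 15.6 and 13.6 RPKM in HBE mRNA; in each such pair of values FLII overexpression precedes vector and knockdown precedes NC. It had 5467 and 4629 RPKM in H1299 cytosol RNA, against 61.8 and 55.6 RPKM in HBE cytosol RNA. It had 3704 and 3540 RPKM in H1299 nuclear RNA, against 37.7 and 37.9 RPKM in HBE nuclear RNA. Every H1299 library was more than 10 times above every HBE library, and the members of a pair of FLII libraries lay close together. The log2 folds of ISG15, H1299 vector over HBE NC, were 5.47 in mRNA, 5.91 in cytosol and 6.30 in nuclear RNA.

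Of the enzymes that attach and remove ISG15, HERC5, HERC6 and USP18 were called higher in H1299 in each fraction and UBE2L6 in nuclear RNA alone. HERC5, the main ISG15 ligase of human cells, stood at 12.5 to 20.7 RPKM in the 6 H1299 libraries (median 17.0 RPKM), against 0 to 0.0687 RPKM in the 6 HBE libraries (median 0.0173 RPKM). It had 438 reads in H1299 vector nuclear RNA and 0 in HBE NC nuclear RNA, at least 144-fold higher in H1299 against a floor of 3 reads. HERC5 was thus near absent from HBE RNA at this depth, with 0 to 2 reads in each of the 6 HBE libraries. Its relative HERC6, the ISG15 ligase of mouse cells, was at 5.36 and 5.28 RPKM in H1299 mRNA, 3.42 and 3.33 RPKM in H1299 cytosol and 5.67 and 5.23 RPKM in H1299 nuclear RNA, against 3.56 and 0.777 RPKM, 0.703 and 0.217 RPKM, and 1.66 and 1.44 RPKM in the same HBE fractions. HERC6 was called higher in H1299 in all 3 fractions (log2 folds 2.47 in mRNA, 3.38 in cytosol and 1.61 in nuclear RNA), yet the lines overlapped, because the HBE FLII knockdown mRNA library held more HERC6 than H1299 cytosol. USP18, the protease that removes ISG15 and dampens receptor signalling, was at 8.93 to 15.8 RPKM in the 6 H1299 libraries (median 13.3 RPKM), against 2.03 to 3.58 RPKM in the 6 HBE libraries (median 2.89 RPKM). The lines did not overlap for USP18, with log2 folds of 1.60 in mRNA, 1.75 in cytosol and 2.03 in nuclear RNA. UBE2L6, the conjugating enzyme of the same cascade, was high in both lines, at 15.3 to 36.9 RPKM in the 6 H1299 libraries (median 21.1 RPKM), against 4.29 to 21.1 RPKM in the 6 HBE libraries (median 10.4 RPKM), with overlap. Its nuclear log2 fold was 1.99, interval 1.55 to 2.47.

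Among the transcription factors, IRF7 stood apart. IRF7, which drives the amplification of type I interferon, had 9.58 and 7.88 RPKM in H1299 mRNA, 28.4 and 21.9 RPKM in H1299 cytosol and 16.7 and 12.4 RPKM in H1299 nuclear RNA, against 0.519 and 0.471 RPKM, 0.148 and 0 RPKM, and 0.0594 and 0.0665 RPKM in the same HBE fractions. Its level in H1299 lay above that in HBE in every fraction, with log2 folds of 3.71 in mRNA and 6.72 in nuclear RNA, and it was at least 63.9-fold higher in cytosol, where HBE NC had 0 reads. STAT2 and IRF9, partners in the ISRE-binding complex, were not called in any fraction, and their lines overlapped. STAT2 stood at 4.36 to 9.82 RPKM in the 6 H1299 libraries (median 8.25 RPKM), against 2.86 to 14.5 RPKM in the 6 HBE libraries (median 5.78 RPKM). IRF9 stood at 6.63 to 12.5 RPKM in the 6 H1299 libraries (median 8.95 RPKM), against 3.43 to 10.6 RPKM in the 6 HBE libraries (median 5.52 RPKM). IRF1, which also acts downstream of interferon gamma, was called lower in H1299 mRNA (−1.42, interval −1.70 to −1.15) and had log2 folds of −0.77 and −0.43 in cytosol and nuclear RNA without a call. IRF1 levels were 6.91 to 14.5 RPKM in the 6 H1299 libraries (median 12.7 RPKM), against 10.9 to 21.8 RPKM in the 6 HBE libraries (median 15.9 RPKM).

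All 3 RNA sensors and helicases were called higher in H1299 in each fraction. DDX58, which encodes RIG-I, was at 10.4 and 10.6 RPKM in H1299 mRNA, 5.52 and 4.88 RPKM in H1299 cytosol and 12.4 and 11.6 RPKM in H1299 nuclear RNA, against 3.25 and 2.52 RPKM, 0.319 and 0.249 RPKM, and 0.923 and 0.659 RPKM in the same HBE fractions. IFIH1, which encodes MDA5, was at 14.0 and 13.1 RPKM in H1299 mRNA, 3.03 and 4.20 RPKM in H1299 cytosol and 14.1 and 10.6 RPKM in H1299 nuclear RNA, against 3.81 and 2.55 RPKM, 0.169 and 0.188 RPKM, and 1.25 and 1.21 RPKM in the same HBE fractions. The mRNA gap was smaller than the gap in the separated fractions for both: the log2 folds were 1.80 in mRNA, 3.76 in cytosol and 3.87 in nuclear RNA for DDX58 and 2.08 in mRNA, 3.90 in cytosol and 2.87 in nuclear RNA for IFIH1. DDX60, a helicase linked to RIG-I signalling, was lower in level, at 0.369 to 4.03 RPKM in the 6 H1299 libraries (median 3.45 RPKM), against 0 to 0.418 RPKM in the 6 HBE libraries (median 0.128 RPKM), with log2 folds of 2.89 in mRNA, 2.35 in cytosol and 4.19 in nuclear RNA.

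Of the 4 IFIT genes, whose proteins bind viral RNA, 3 were called higher in H1299 in each fraction and 1 in none. IFIT3 was the highest of them, at 25.2 and 20.8 RPKM in H1299 mRNA, 66 and 72.2 RPKM in H1299 cytosol and 173 and 138 RPKM in H1299 nuclear RNA, against 3.40 and 2.00 RPKM, 1.43 and 0.798 RPKM, and 4.80 and 3.81 RPKM in the same HBE fractions. Its nuclear level in H1299 exceeded its cytosol level, which in turn exceeded its mRNA level. IFIT1 stood at 6.07 to 18.0 RPKM in the 6 H1299 libraries (median 7.81 RPKM), against 0.0329 to 0.721 RPKM in the 6 HBE libraries (median 0.570 RPKM), and IFIT2 at 9.62 to 28.7 RPKM in the 6 H1299 libraries (median 17.1 RPKM), against 0 to 1.11 RPKM in the 6 HBE libraries (median 0.348 RPKM). The lines did not overlap for any of these 3 genes. IFIT1 had log2 folds of 3.49 in mRNA, 6.04 in cytosol and 4.35 in nuclear RNA, while IFIT2 had 3.64 in mRNA and 5.59 in nuclear RNA and was at least 57.7-fold higher in cytosol. IFIT5, at 1.07 to 2.42 RPKM in the 6 H1299 libraries (median 2.20 RPKM), against 0.713 to 2.15 RPKM in the 6 HBE libraries (median 1.53 RPKM), overlapped between the lines and was not called.

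The 3 IFITM genes, which encode membrane proteins that block virus entry, went the other way together. IFITM3 had 355 and 318 RPKM in H1299 mRNA, 1109 and 799 RPKM in H1299 cytosol and 869.7 and 748 RPKM in H1299 nuclear RNA, against 1303 and 2157 RPKM, 3296 and 3315 RPKM, and 2574 and 2614 RPKM in the same HBE fractions. IFITM1 had 20.9 and 20.2 RPKM in H1299 mRNA, 72.8 and 48.3 RPKM in H1299 cytosol and 50.5 and 46.5 RPKM in H1299 nuclear RNA, against 222 and 396 RPKM, 457 and 427 RPKM, and 438 and 363 RPKM in the same HBE fractions. IFITM2 stood at 39.9 to 121 RPKM in the 6 H1299 libraries (median 82.2 RPKM), against 575 to 953 RPKM in the 6 HBE libraries (median 724 RPKM). For each of the 3, every HBE library lay above every H1299 library, although IFITM3 was also the second highest member by RPKM in each of the 6 H1299 libraries. Their log2 folds were −4.55 in mRNA, −3.61 in cytosol and −3.20 in nuclear RNA for IFITM1, −4.44 in mRNA, −3.81 in cytosol and −3.12 in nuclear RNA for IFITM2 and −3.03 in mRNA, −2.52 in cytosol and −2.05 in nuclear RNA for IFITM3. These genes share part of their sequence. Annotated transcripts of IFITM1 and IFITM2 share 314 windows of 50 bases, or 30.3% of those of IFITM1 and 24.7% of those of IFITM2. IFITM2 and IFITM3 share 140 (11.0% and 12.1%), and IFITM1 and IFITM3 share 98 (9.46% and 8.46%). The split of reads among them is therefore uncertain, while 1 further pair among the 1081 pairs of members shared any window (MX1 and MX2, 19).

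The OAS family was divided. OAS1, which makes the 2′-5′ oligoadenylates that activate RNase L, stood at 0.0955 to 0.748 RPKM in the 6 H1299 libraries (median 0.443 RPKM), against 9.5 to 20.2 RPKM in the 6 HBE libraries (median 18.2 RPKM). OAS3, the longest of these synthetases, was at 1.09 to 10.5 RPKM in the 6 H1299 libraries (median 2.29 RPKM), against 4.85 to 22.9 RPKM in the 6 HBE libraries (median 7.27 RPKM). OASL, a family member without synthetase activity that aids RIG-I, was at 15.1 to 37.2 RPKM in the 6 H1299 libraries (median 26.6 RPKM), against 0 to 2.91 RPKM in the 6 HBE libraries (median 2.26 RPKM). Thus OAS1 was lower in H1299 without overlap, OAS3 was called lower in each fraction with overlap, and OASL was higher in H1299 without overlap. The log2 folds were −5.72 in mRNA, −4.36 in cytosol and −7.38 in nuclear RNA for OAS1, −1.22 in mRNA, −2.42 in cytosol and −1.92 in nuclear RNA for OAS3 and 3.82 in mRNA, 3.45 in cytosol and 3.34 in nuclear RNA for OASL. OAS2 had 0 to 13 reads per library outside RNC and was not kept in any line pair, although its 6 H1299 values lay above its 6 HBE values.

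The direct antiviral effectors had no common direction, with 6 of 9 kept in mRNA and cytosol and 8 in nuclear RNA. TRIM22, a ring-finger protein of the TRIM family, had 1 read over the 6 H1299 libraries, against 247 and 228 reads in HBE mRNA, 15 and 14 in HBE cytosol and 98 and 69 in HBE nuclear RNA. Its log2 fold was −7.07, interval −12.93 to −5.13 in mRNA, and it was at least 23.3-fold lower in H1299 nuclear RNA. TRIM21, an intracellular antibody receptor, was called lower in H1299 in each fraction (−1.37 in mRNA, −1.03 in cytosol and −2.02 in nuclear RNA), with levels of 2.57 to 6.59 RPKM in the 6 H1299 libraries (median 3.99 RPKM), against 5.17 to 12.8 RPKM in the 6 HBE libraries (median 10.7 RPKM). BST2, which tethers budding virions to the cell, was at 1.40 and 1.43 RPKM in H1299 mRNA, 8.36 and 6.33 RPKM in H1299 cytosol and 17.5 and 12.5 RPKM in H1299 nuclear RNA, against 0.709 and 0.386 RPKM, 0.323 and 0.180 RPKM, and 0.909 and 1.16 RPKM in the same HBE fractions. The lines did not overlap for BST2 even though its mRNA reads were too few to be kept. ISG20, an RNA exonuclease, was well expressed in both lines, at 13.4 to 80.1 RPKM in the 6 H1299 libraries (median 50.5 RPKM), against 12.1 to 37.3 RPKM in the 6 HBE libraries (median 20.3 RPKM), and was called higher in H1299 nuclear RNA (1.31, interval 1.00 to 1.65). SAMHD1, which cleaves deoxynucleotides, depended on the fraction: it had 12.2 and 11.6 RPKM in H1299 mRNA, against 10.5 and 8.22 RPKM in HBE mRNA. It had 1.05 and 1.15 RPKM in H1299 cytosol RNA, against 1.29 and 1.01 RPKM in HBE cytosol RNA. It had 0.975 and 0.897 RPKM in H1299 nuclear RNA, against 4.47 and 3.38 RPKM in HBE nuclear RNA. SAMHD1 was called lower in H1299 nuclear RNA (−2.12, interval −2.98 to −1.40) and was not called in mRNA (0.23). MX1, a dynamin-like GTPase, was low in both lines, at 0.669 to 1.24 RPKM in the 6 H1299 libraries (median 1.09 RPKM), against 0.134 to 0.314 RPKM in the 6 HBE libraries (median 0.207 RPKM), without overlap, and was called higher in H1299 mRNA (1.99) and nuclear RNA (1.95). RSAD2, which encodes viperin, was called in nuclear RNA on 21 against 9 reads (1.16, interval 0.01 to 2.51) and stood at 0 to 1.24 RPKM in the 6 H1299 libraries (median 0.359 RPKM), against 0 to 0.521 RPKM in the 6 HBE libraries (median 0.0865 RPKM). PLSCR1, a scramblase, was not called in any fraction.

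Among the remaining members, IFI16 and LGALS3BP marked HBE and IFI6 marked H1299. IFI16, a nuclear sensor of DNA, had 0.263 and 1.11 RPKM in H1299 mRNA, 0.644 and 0 RPKM in H1299 cytosol and 0.227 and 0.523 RPKM in H1299 nuclear RNA, against 21.8 and 22.1 RPKM, 1.94 and 1.73 RPKM, and 19.8 and 16.2 RPKM in the same HBE fractions. Its levels did not overlap between the lines, and its log2 folds were −4.55 in mRNA and −5.12 in nuclear RNA, while it was at least 20.2-fold lower in H1299 cytosol. LGALS3BP, a secreted glycoprotein that binds galectins, had 18.2 and 18.5 RPKM in H1299 mRNA, 9.0 and 5.07 RPKM in H1299 cytosol and 27.7 and 21.7 RPKM in H1299 nuclear RNA, against 170.4 and 297 RPKM, 70.1 and 63.4 RPKM, and 273 and 257 RPKM in the same HBE fractions. Its log2 folds were −4.26 in mRNA, −4.10 in cytosol and −3.80 in nuclear RNA. IFI6, an endoplasmic reticulum protein that limits flaviviruses, had 257 and 202 RPKM in H1299 mRNA, 441 and 342 RPKM in H1299 cytosol and 688 and 486 RPKM in H1299 nuclear RNA, against 9.29 and 15.6 RPKM, 4.59 and 2.36 RPKM, and 5.10 and 4.28 RPKM in the same HBE fractions. It was the third highest member by RPKM in each of the 6 H1299 libraries, and its log2 folds were 3.42 in mRNA, 6.67 in cytosol and 6.56 in nuclear RNA. IFI44 had 3.62 to 16.5 RPKM in the 6 H1299 libraries (median 7.80 RPKM), against 0 to 0.158 RPKM in the 6 HBE libraries (median 0.0350 RPKM), and IFI27, a small mitochondrial protein, had 2.76 to 14.3 RPKM in the 6 H1299 libraries (median 8.82 RPKM), against 0.817 to 1.56 RPKM in the 6 HBE libraries (median 1.11 RPKM); neither overlapped between the lines. TAP1, which carries peptides to HLA class I, was at 12.3 to 20.9 RPKM in the 6 H1299 libraries (median 20.5 RPKM), against 23.9 to 43.6 RPKM in the 6 HBE libraries (median 27.8 RPKM), called lower in H1299 cytosol (−1.43) and nuclear RNA (−1.13). The 3 PARP genes, the nuclear body genes SP100 and SP110 and IFI35 were not called in any of the 3 fractions, with log2 folds from −0.91 (PARP9 in mRNA) to 0.80 (IFI35 in nuclear RNA). PARP12, a poly-ADP-ribose polymerase family member, stood at 8.63 to 11.1 RPKM in the 6 H1299 libraries (median 10.1 RPKM), against 6.57 to 8.16 RPKM in the 6 HBE libraries (median 7.74 RPKM) without overlap, but its TMM-scaled log2 folds were 0.10 in mRNA, −0.14 in cytosol and 0.08 in nuclear RNA, so its direction depended on the scaling. XAF1, a partner of the apoptosis inhibitor XIAP, was kept in nuclear RNA only and called higher in H1299 there, on 28 against 8 reads. Its levels were 0.0331 to 1.23 RPKM in the 6 H1299 libraries (median 0.311 RPKM), against 0 to 0.301 RPKM in the 6 HBE libraries (median 0.0784 RPKM).

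Promoter sequences show what the members of both blocks share in their DNA. They are given here for 3 genes high in H1299 and 2 genes high in HBE, from RefSeq on GRCh38.p14, as 250 bases before to 50 bases after the start of the gene, 5′ to 3′ on the gene's strand. The deposited counts use another build, so no deposited coordinate is joined to them. Capitals mark an ISRE-like motif, GAAA, any 2 bases and GAAA, or its reverse complement, TTTC, any 2 bases and TTTC. Both strands were searched, and overlapping matches were both counted. The windows lie at chr1:1013247-1013546, plus strand, for ISG15, at chr10:89392373-89392672, plus strand, for IFIT1, at chr1:27672143-27672442, minus strand, for IFI6, at chr11:313790-314089, plus strand, for IFITM1, and at chr11:320811-321110, minus strand, for IFITM3.
ISG15: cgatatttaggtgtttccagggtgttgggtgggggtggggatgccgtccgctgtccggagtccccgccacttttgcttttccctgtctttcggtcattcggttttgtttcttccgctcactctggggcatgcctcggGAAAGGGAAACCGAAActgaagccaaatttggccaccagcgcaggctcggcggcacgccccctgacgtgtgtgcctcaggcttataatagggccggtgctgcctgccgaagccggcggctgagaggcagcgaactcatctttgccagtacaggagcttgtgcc
IFIT1: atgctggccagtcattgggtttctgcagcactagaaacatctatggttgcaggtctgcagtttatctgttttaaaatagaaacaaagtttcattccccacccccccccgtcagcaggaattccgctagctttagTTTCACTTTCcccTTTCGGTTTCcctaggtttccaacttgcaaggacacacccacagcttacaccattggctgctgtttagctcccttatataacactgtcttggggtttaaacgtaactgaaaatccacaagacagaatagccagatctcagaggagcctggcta
IFI6: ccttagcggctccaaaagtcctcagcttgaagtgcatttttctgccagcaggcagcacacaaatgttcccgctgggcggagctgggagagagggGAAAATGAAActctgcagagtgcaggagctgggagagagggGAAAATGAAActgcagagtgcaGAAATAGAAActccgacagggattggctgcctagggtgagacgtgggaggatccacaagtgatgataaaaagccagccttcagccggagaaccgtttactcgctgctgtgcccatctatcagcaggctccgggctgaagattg
IFITM1: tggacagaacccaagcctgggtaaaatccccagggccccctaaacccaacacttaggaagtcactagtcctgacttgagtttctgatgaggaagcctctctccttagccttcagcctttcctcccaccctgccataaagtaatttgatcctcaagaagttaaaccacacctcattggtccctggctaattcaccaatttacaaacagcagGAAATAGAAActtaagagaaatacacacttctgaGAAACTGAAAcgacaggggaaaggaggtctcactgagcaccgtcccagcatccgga
IFITM3: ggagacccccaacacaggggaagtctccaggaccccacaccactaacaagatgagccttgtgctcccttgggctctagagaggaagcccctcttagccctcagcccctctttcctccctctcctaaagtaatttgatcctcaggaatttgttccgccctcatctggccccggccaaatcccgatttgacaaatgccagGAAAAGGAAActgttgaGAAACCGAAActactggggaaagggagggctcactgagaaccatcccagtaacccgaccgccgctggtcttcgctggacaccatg

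In these 5 windows ISG15 held 2 matches, IFIT1 2, IFI6 3, IFITM1 2 and IFITM3 2. RefSeq windows were matched for 39 of the 47 members, and 26 of the 39 (66.7%) held the motif, beside 1195 of 27305 genes (4.38%) in the table. It was present in 10 of 11 members whose H1299 levels all lay above HBE, in 4 of 6 whose H1299 levels all lay below, and in 12 of 22 whose lines overlapped. Members on both sides thus carried it. TRIM21 and OAS3, called lower in H1299 although their lines overlapped, held it too. OAS1 had no match in its window, and IFI16 had none in those at chr1:159008741-159009040 and chr1:159009657-159009956. A match is a stretch of letters and shows no binding.

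The other genes of the pathway were read from 6 lists with 103 genes. The 9 interferon genes gave 46 reads over all 16 libraries, of which IFNE gave 38. IFNB1 had 3 reads, IFNL1 had 3 and IFNA1 had 2, and the other 5, IFNG among them, had 0. Over all 6 lists, 9 of 80 genes kept were called higher in H1299 mRNA and 28 lower (all genes 21.2% and 22.4%). In cytosol 20 and 16 of 72 were (26.7% and 22.2%), and in nuclear RNA 13 and 25 of 76 (22.3% and 23.1%). Among receptors, IFNAR1, a chain of the type I receptor, was called higher in cytosol (1.34) and nuclear RNA (1.36), IL10RB, a chain of the lambda receptor, was called higher in all 3 fractions (1.01, 2.53 and 2.66 in mRNA, cytosol and nuclear RNA), and IFNGR1 lower in mRNA (−2.02) and nuclear RNA (−1.88). Of the sensors and adaptors, MYD88, the adaptor of Toll-like receptors, was called lower in all 3 (−6.22, −7.16 and −7.76), as was the transcription factor IRF5 (−4.50, −4.85 and −4.47). MB21D1, which encodes the DNA sensor cGAS, was called higher in all 3 (4.77, 6.34 and 2.79). HLA-B, which presents peptides to T cells, was called higher (4.01, 3.56 and 3.80), with the limit that HLA genes can share reads. CD74, the chaperone of HLA class II, was called lower (−7.10, −8.93 and −9.25). The 7 epithelial markers summed to 5.85 to 73.1 RPKM in H1299 and 3061 to 5520 RPKM in HBE libraries outside RNC, and their part in these differences cannot be told apart from the line.

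Overexpression of FLII in H1299 gave 2 called members over the 3 fractions outside RNC, both on few reads. In mRNA 0 of 38 members kept were called higher (all genes 0.330%) and 1 lower (0.468%). In cytosol 0 of 38 were higher (1.04%) and 1 lower (1.64%), and in nuclear RNA 0 of 40 were higher (0.407%) and 0 lower (0.192%). The single mRNA call was IFI16, at 6 reads in FLII overexpression mRNA and 18 in vector mRNA (−1.96, interval −3.68 to −0.66). The keratins KRT17 (−1.73), KRT5 (−1.49) and KRT19 (−1.40) were lower in the same pair. Of the other epithelial markers, CDH1 (−0.17) was not called, and EPCAM (8 reads in FLII overexpression and 10 in vector), TP63 (2 and 1) and SFN (9 and 6) were not kept. In cytosol, IFI16 had 11 reads in FLII overexpression and 0 in vector, too few to be kept, and KRT5 (4.42) and KRT17 (4.00) were higher in that pair. In nuclear RNA, IFI16 had 4 reads in FLII overexpression and 9 in vector, also too few to be kept, and KRT17 had a log2 fold of 0.92, interval 0.10 to 1.81. Of the other epithelial markers in that pair, SFN (0.25) was not called. KRT5 (8 reads in FLII overexpression and 8 in vector), KRT19 (4 and 11), EPCAM (4 and 8), CDH1 (3 and 0) and TP63 (0 and 0) were not kept. The part of keratin-bearing RNA in the IFI16 values was not tested.

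The cytosol call was PARP9, a partner of the ligase DTX3L, at 14 reads in FLII overexpression and 46 in vector (−1.05, interval −2.05 to −0.18). PARP9 had log2 folds of 0.12 in mRNA and 0.43 in nuclear RNA, and with 5 reads added in place of 0.5 its cytosol fold was −0.89 and was not called. LGALS3BP stood highest among the uncalled cytosol folds (0.90, interval 0.52 to 1.29). Of the other members called lower in H1299 than HBE in each fraction, IFITM1 (0.66), IFITM2 (0.59) and IFITM3 (0.55) had positive cytosol folds, TRIM21 (−0.35) and OAS3 (−0.11) negative ones, and OAS1 and IFI16 were not kept. In nuclear RNA, 36 of 40 members had a positive log2 fold (90%), beside 49.5% of all genes, at a median of 0.15 for members and 0.00 for all genes, and 13 of the 36 had an interval above 0 without reaching the call. IFI6 had the same small step in each fraction: it was at 257 against 202 RPKM in mRNA, 441 against 342 RPKM in cytosol and 688 against 486 RPKM in nuclear RNA. Its log2 folds were 0.36, interval 0.25 to 0.48 in mRNA, 0.44, interval 0.36 to 0.52 in cytosol and 0.46, interval 0.39 to 0.54 in nuclear RNA. IRF9 likewise had 0.58, 0.69 and 0.52 in mRNA, cytosol and nuclear RNA. In all, 11 of 37 members kept in the 3 fractions had positive folds in each and 0 had negative folds in each. The shares of all genes with such folds, or with an interval above 0, were not counted. Without replicates, steps of this size cannot be told apart from the variation between cultures.

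**Figure D3:**
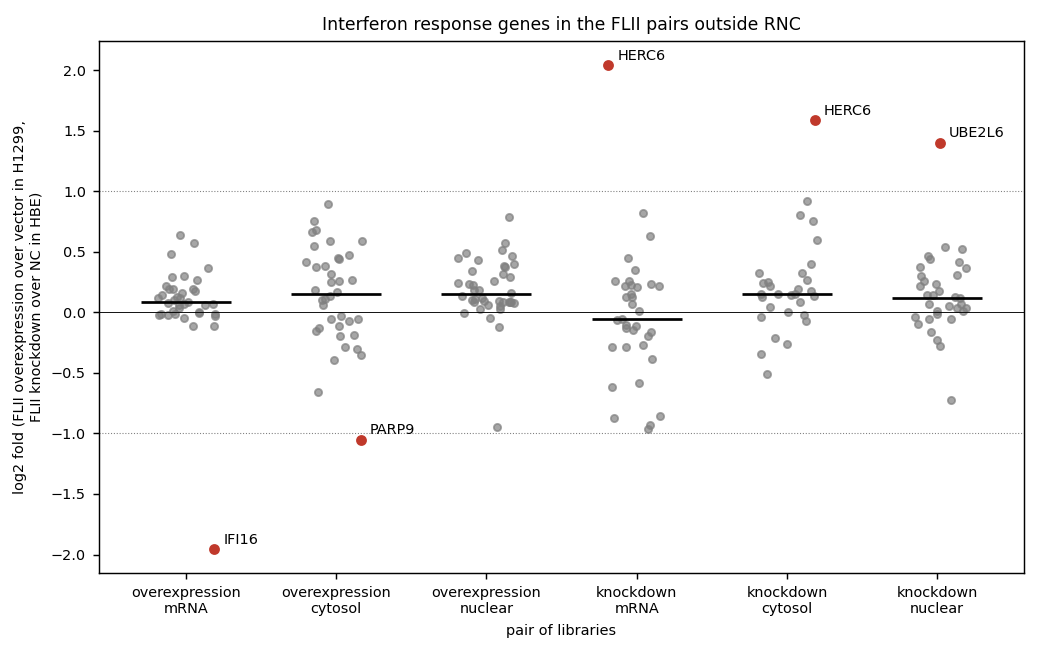
Log2 folds of the members kept in each pair of FLII libraries outside RNC, overexpression over vector in H1299 and knockdown over NC in HBE. Each point is 1 member, the bar is the median of the members, dotted lines mark a log2 fold of 1 in size, and red points are the called members. The 5 calls are IFI16, PARP9, HERC6 in 2 fractions and UBE2L6.

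Knockdown of FLII in HBE gave 1 called member in each fraction, always higher. In mRNA 1 of 35 members kept was higher (all genes 2.02%) and 0 lower (2.93%), in cytosol 1 of 30 was higher (0.625%) and 0 lower (0.625%), and in nuclear RNA 1 of 34 was higher (0.550%) and 0 lower (0.323%). HERC6 was the call in mRNA and cytosol: it had 104 reads in knockdown mRNA and 25 in NC mRNA (2.04, interval 1.43 to 2.76). In cytosol it had 18 reads in knockdown and 5 in NC (1.59, interval 0.19 to 3.46), and in nuclear RNA 53 and 41 (0.17, interval −0.44 to 0.80). HERC5, its relative, had 0 to 2 reads in these libraries and gave no fold. The knockdown mRNA library also held more of the mesenchymal markers FN1 (91.6 against 3.61 RPKM) and CDH2 (9.33 against 1.63 RPKM) and of the endothelial marker CDH5 (19.3 against 5.44 RPKM) than NC mRNA. It held less of the mesenchymal marker VIM (1.43 against 2.77 RPKM). The endothelial markers PECAM1 (1.11 against 1.82 RPKM) and VWF (0.286 against 0.397 RPKM) were also lower, and the mesenchymal marker ZEB1 had 1 read against 0. Summed over their lists, the 4 mesenchymal markers were at 102 RPKM in knockdown mRNA and 8.02 RPKM in NC mRNA and the 3 endothelial markers at 20.7 RPKM and 7.66 RPKM, and their part in the HERC6 difference was not tested. In cytosol the mesenchymal sums were 3.42 RPKM in knockdown and 1.87 RPKM in NC.

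The nuclear call was UBE2L6, with 155 reads in knockdown and 51 in NC (1.40, interval 0.94 to 1.90). The mesenchymal marker FN1 was higher in the same nuclear pair (1.04), and its part was not tested. The mesenchymal markers CDH2 (0.28) and VIM (−0.50) were not called there, and ZEB1, with 0 reads in knockdown and 1 in NC, was not kept. UBE2L6 had log2 folds of 0.60 in cytosol and −0.07 in mRNA. On the lower side, genes high in HBE did not reach the call in mRNA: IFITM1 had 222 against 396 RPKM (−0.96, interval −1.07 to −0.86). LGALS3BP had 170.4 against 297 RPKM (−0.93, interval −0.99 to −0.86), and IFITM3 had 1303 against 2157 RPKM (−0.86, interval −0.90 to −0.81). The same 3 genes were within 0.24 of no change on the log2 scale in cytosol and nuclear RNA. Of the other members called lower in H1299 than HBE in each fraction, IFITM2 was also lower in knockdown mRNA (575 against 787 RPKM). OAS1 (19.3 against 19.7 RPKM) and IFI16 (21.8 against 22.1 RPKM) lay close together there. OAS3 (22.9 against 17.9 RPKM) and TRIM21 (12.1 against 9.27 RPKM) were higher in knockdown mRNA without a call. In this mRNA pair, scaling to total counts shifted the all-gene median by 0.13 and the share of higher calls to 57.9%, against 40.8%, and the median of the members turned to 0.07, against −0.06. Of the pathway lists, CCL5, a chemokine that interferon induces, was called higher in knockdown mRNA (1.48) and IL10RB (−1.01) and GBP2 (−1.89) lower, GBP3 was called higher in knockdown cytosol (1.51) on 17 against 5 reads, and JAK2 higher in H1299 FLII overexpression nuclear RNA (1.14) on 26 against 11 reads. No other gene of the 103 was called in an FLII pair outside RNC.

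Nuclear RNA was set against cytosol RNA within each group. In H1299 FLII overexpression 7 of 40 members were called higher in nuclear RNA (all genes 17.9%) and 6 lower (18.3%), and in H1299 vector 7 of 40 (14.8%) and 2 (12.7%). In HBE FLII knockdown 9 of 33 were higher (23.9%) and 4 lower (17.6%), and in HBE NC 11 of 33 (22.8%) and 5 (17.0%). The median log2 fold of the members was 0.23, 0.21, 0.14 and 0.31 in these 4 groups, in the same order, beside 0.05, −0.00, 0.18 and 0.14 for all genes. IFIH1 and LGALS3BP were called higher in nuclear RNA in all 4 groups. LGALS3BP had log2 folds of 1.08 in H1299 FLII overexpression, 1.77 in H1299 vector, 1.40 in HBE knockdown and 1.48 in HBE NC. UBE2L6 was called lower in nuclear RNA in all 4, at −1.29, −1.09, −1.41 and −2.21 in the same order. The share of all genes called the same way in all 4 groups was not counted. The short transcripts ISG15 and ISG20 leaned to the cytosol in each group (−1.09 and −1.35 in HBE NC), and long ones such as PARP14 (1.35) and DDX60 (2.47 in H1299 vector) to the nucleus.

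Across the members the nuclear over cytosol fold went with the transcript length stated in the files. Spearman's rho was 0.64 and 0.59 in H1299 FLII overexpression and vector (40 members) and 0.67 and 0.64 in HBE knockdown and NC (33 members), beside 0.36, 0.31, 0.38 and 0.38 over all genes kept. These are descriptions across genes, which share their libraries and are not independent. Scaling to total counts shifted the all-gene median by 0.54, 0.32, 0.55 and 0.53 in these 4 pairs, in the same order. The share of higher calls among all genes became 83.8%, 80.7%, 87.5% and 88.3%, against 49.4%, 53.9%, 57.5% and 57.3% with TMM. It left 15 members higher and 0 lower, 10 and 0, 14 and 0, and 15 and 1, while ISG15, ISG20 and UBE2L6 kept negative folds in all 4 groups.

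**Figure D4:**
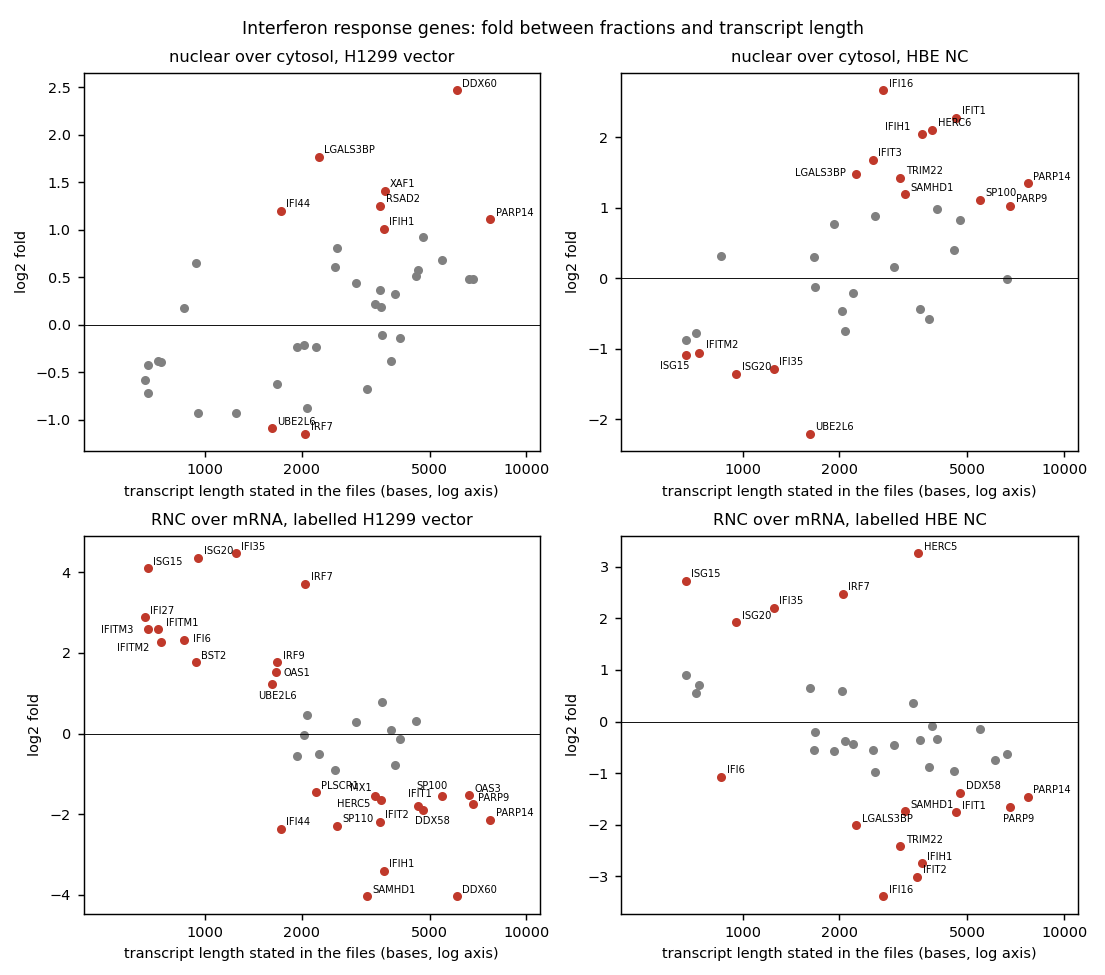
Log2 fold of each member kept against the transcript length stated in the files (log axis), for nuclear over cytosol RNA (top) and RNC over mRNA (bottom) in the libraries labelled H1299 vector (left) and HBE NC (right). Red points with names are called members. Long members lie higher in nuclear RNA and lower in RNC, with ISG15, ISG20, IFI35 and IRF7 called higher in both lower panels.

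RNC over mRNA asks how much of a transcript is pelleted with ribosomes. In the libraries labelled H1299 vector, 13 of 39 members kept were called higher in RNC (all genes 32.6%) and 15 lower (31.6%). In those labelled HBE NC, 5 of 38 were higher (24.8%) and 11 lower (17.0%). The medians of the members were −0.14 in H1299 vector and −0.50 in HBE NC, beside −0.09 and 0.05 for all genes. ISG15 (4.09 in H1299 vector, 2.73 in HBE NC), ISG20 (4.36 and 1.92), IFI35 (4.47 and 2.20) and IRF7 (3.71 and 2.48) were higher in both. The 7 lower in both were DDX58, IFIH1, IFIT1, IFIT2, PARP9, PARP14 and SAMHD1, of which IFIH1 had −3.41 and −2.74. DDX58 and IFIH1, which encode sensors of viral RNA, were in the lower set, and ISG15 itself in the higher one. The share of all genes called the same way in both pairs was not counted, so neither set is marked off from other genes. Spearman's rho of the fold with transcript length was −0.73 over 39 members in H1299 vector and −0.50 over 38 in HBE NC, beside −0.48 and −0.40 over all genes.

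The 2 labelled pairs went opposite ways for 2 members. Which line each RNC library holds was not settled, and the share of all genes with opposite calls was not counted. HERC5 was lower in RNC in H1299 vector (−1.65) and higher in HBE NC (3.26), where it had 48 reads in RNC and 2 in mRNA. IFI6 was higher in H1299 vector (2.31) and lower in HBE NC (−1.07). The HERC5 reads of the RNC library labelled HBE NC came with 204 RPKM of VIM, and the part of VIM-bearing RNA in them was not tested. Scaling to total counts shifted the all-gene median by −2.18 in H1299 vector and −0.93 in HBE NC, which left 4 members higher and 26 lower, and 4 and 27. The share of higher calls among all genes became 11.5% and 21.6%, against 50.8% and 59.4% with TMM. UBE2L6 (−0.97), IRF9 (−0.42), OAS1 (−0.54) and BST2 (−0.37) then turned negative in H1299 vector.

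In RNC, ISG15, IRF7 and IFITM3 did not pair the libraries by their labels. ISG15 stood at 93.6 RPKM in the library labelled H1299 FLII overexpression and 2724 RPKM in that labelled H1299 vector, and at 1865 RPKM in that labelled HBE FLII knockdown and 47.6 RPKM in that labelled HBE NC. IFITM3 stood at 7323, 419.9, 230.2 and 2124 RPKM in the same order. IRF7 stood at 0.0886, 22.7, 15.0 and 1.42 RPKM. The libraries labelled H1299 vector and HBE FLII knockdown were thus high in ISG15 and IRF7 and low in IFITM3, and the libraries labelled H1299 FLII overexpression and HBE NC were the reverse. The plot of both blocks by library shows the 24 members whose lines did not overlap.

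**Figure D5:**
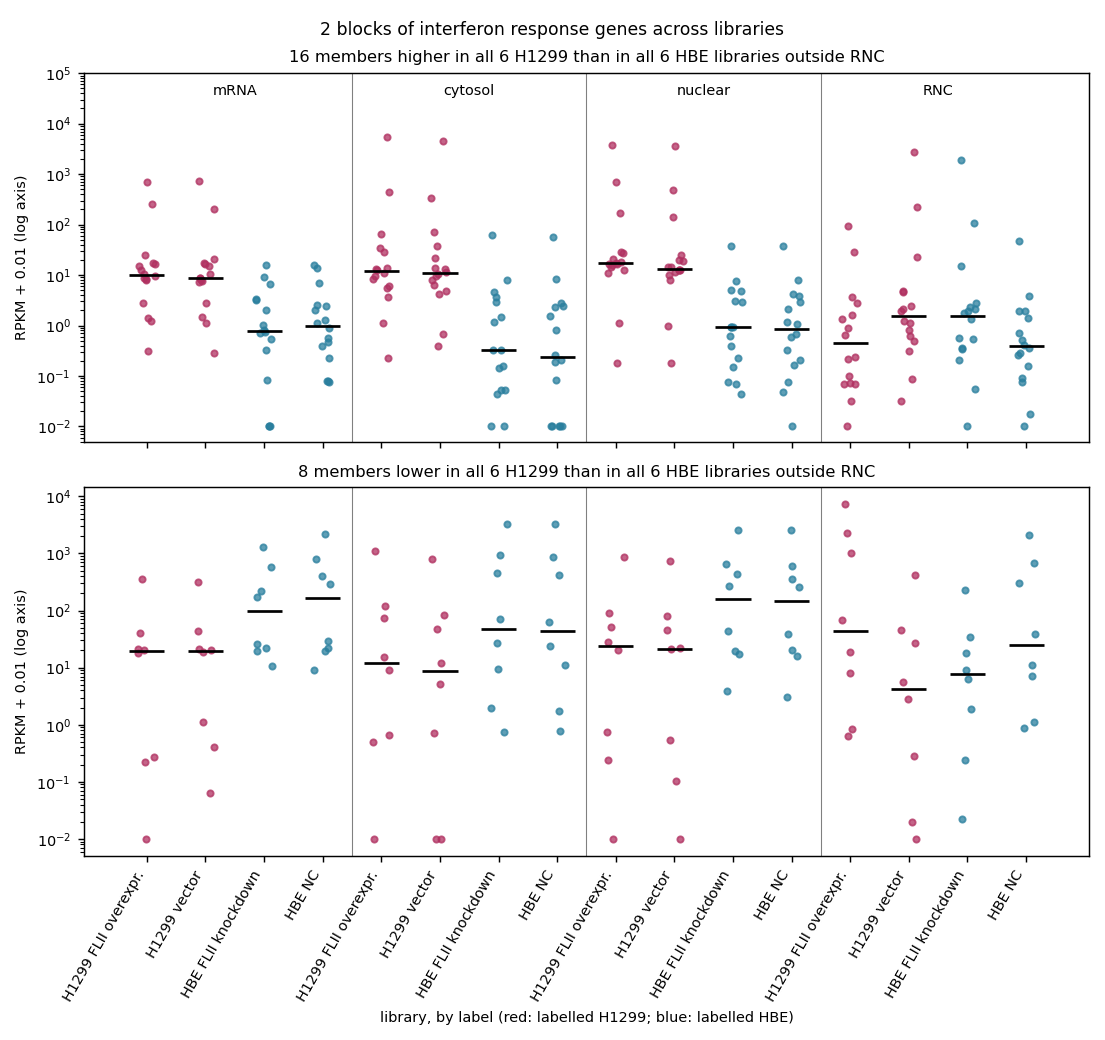
Deposited RPKM plus 0.01 (log axis) of the 16 members higher in all H1299 libraries outside RNC (top) and the 8 members lower in all of them (bottom), in each of the 16 libraries. Each point is 1 member and the bar is the median, with libraries labelled H1299 in red and those labelled HBE in blue. In RNC the medians follow ISG15 and IFITM3: the libraries labelled H1299 FLII overexpression and HBE NC are low in the upper block and high in the lower one.

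Between the libraries labelled H1299 vector RNC and HBE NC RNC, 20 of 42 members were called higher in H1299 vector (all genes 25.6%) and 14 lower (32.8%). Of the 16 members above HBE in all H1299 libraries outside RNC, 14 had the higher RPKM in the library labelled H1299 vector, and of the 8 on the other side 8 had the lower. The library labelled H1299 FLII overexpression against that labelled H1299 vector gave 16 of 42 called higher (26.1%) and 14 lower (23%). There 13 of the 16 had the lower RPKM, 3 the higher, and 8 of the 8 the higher. The library labelled HBE FLII knockdown against that labelled HBE NC gave 12 of 41 called higher (18.9%) and 10 lower (11.7%), with 13 of the 16 at the higher RPKM, 3 at the lower, and 8 of the 8 at the lower. How all genes with the same pattern outside RNC went in these pairs was not counted, so the counts of the 16 and the 8 are not particular to the members. In these RNC pairs the labelled FLII change and KRT17 move together and cannot be told apart. Under total counts the library labelled H1299 vector had 13 members higher and 17 lower than that labelled HBE NC and a median of −0.27, against 0.71 with TMM scaling, while the median of all genes moved by −0.98 and the share of higher calls among all genes became 18.9%, against 43.9%. For the pair labelled HBE FLII knockdown and HBE NC, total counts gave 10 members higher and 13 lower, a share of higher calls of 37.7%, against 61.7%, and a median of the members of −0.07, against 0.29.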

How the data were processed

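Per the file headers, each deposited file lists a gene name, a RefSeq transcript, its length, a read count and an RPKM for 23709 genes. The RPKM deposited by the authors equals the read count divided by length and by the library's own total, within a relative deviation of 5.5e-07. The submitters' processing notes name GRCh37 and hg19 as builds. Aligner, counting tool and strand setting: not given in the sources used here. Per the labels' protocols, libraries were made from polyA RNA with a NEBNext mRNA kit, and RNC RNA was pelleted through sucrose after cycloheximide.

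The 47 members were matched by gene name. Members and lists were chosen with earlier results of these data known. Members called in a line contrast outside RNC or in an FLII pair were named with values, the others by range and count. Pathway genes given with values are examples from those called in at least 2 line fractions or in an FLII pair. For each of 18 pairs of libraries, read counts of all genes were scaled with TMM (edgeR 4.0.16, R 4.3.3), 0.5 reads were added, and a gene was tested only when the pair held 20 or more reads of it. Intervals are exact conditional binomial (Clopper-Pearson) intervals at 95%, which cover counting error only. Where a library had 0 reads, the fold is a lower bound, computed with 3 reads in that library. Fold calls were tested on simulated data. Alternatives were total counts, median-of-ratios size factors (DESeq2 1.42.0), at least 1 or 100 reads, and 5 reads added. The line contrast between H1299 FLII overexpression and HBE FLII knockdown, and the count without the H1299 FLII overexpression cytosol library, were chosen after seeing the data.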

Additional observations from a re-analysis of the deposited data

Results flagged for a closer look

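For 2 members the same labelled FLII contrast gave calls in opposite directions in different fractions, and the difference between the fractions was not tested. IFI16 had a log2 fold of 5.64 between the RNC libraries labelled H1299 FLII overexpression and H1299 vector, and −1.96 between the mRNA libraries of these groups. PARP9 had 1.01 between the same RNC libraries and −1.05 in cytosol. The 2 RNC libraries differ in KRT17, as given with the label checks.

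For 2 members RNC over mRNA went opposite ways in the 2 labelled pairs, and this difference was not tested either. HERC5 had a log2 fold of −1.65 in the libraries labelled H1299 vector and 3.26 in those labelled HBE NC. IFI6 had 2.31 in the libraries labelled H1299 vector and −1.07 in those labelled HBE NC.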

How the results depend on the processing

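Over all alternatives, 174 counts of called members stayed within 1.5 times the reported count and 20 moved further. Of 3404 member folds recomputed under an alternative, 71 changed sign, 58 of them with total counts, and 4 of the 71 had been called. With total counts in place of TMM, the library labelled H1299 vector RNC had 13 members higher than that labelled HBE NC RNC. Nuclear over cytosol then gave 15 higher and 0 lower in H1299 FLII overexpression, 0 lower in H1299 vector, 14 higher and 0 lower in HBE knockdown and 1 lower in HBE NC. RNC over mRNA gave 4 higher and 26 lower in H1299 vector and 27 lower in HBE NC, and UBE2L6 (−0.97), IRF9 (−0.42), OAS1 (−0.54) and BST2 (−0.37) were the called folds that changed sign, in H1299 vector. With at least 100 reads, no member was lower with FLII overexpression in mRNA (0) or cytosol (0), 10 were higher in the RNC pair labelled overexpression, 0 were higher with knockdown in cytosol, 7 were higher in the RNC pair labelled knockdown, and 5 were higher in nuclear RNA of HBE NC. With at least 1 read, 1 member was higher with overexpression in cytosol, 1 in nuclear RNA, and 1 was lower with knockdown in mRNA. With 5 reads added, 0 members were lower with overexpression in cytosol (PARP9 −0.89). Beyond those that follow from keeping more or fewer genes, the cause was not tested. No paired analysis was possible because each group has 1 library per fraction and no replicate numbers are shared, and no replicate could be left out. Members under 20 reads over a pair were left out of the calls, although some of their intervals exclude no change.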
